A study of Mus musculus with 8 samples.

Results

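The distal end of mouse chromosome 12 carries the immunoglobulin heavy chain (IgH) locus, and the 69 genes described here are the expressed genes on either side of it. They are the genes of chromosome 12 that start at or beyond position 105000000 of the mm9 build and that reached 1 FPKM (reads normalised to transcript length and library size, the unit the authors deposited) in at least 2 of 8 libraries. The interval held 234 gene entries, of which these 69 passed. Across the genome 10479 of 23929 gene symbols passed the same filter.

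RNA came from 4 untreated pro-B lines, derived from bone marrow of the 129SV strain, with 2 libraries from each. CBE line 1 and CBE line 2, titled CBE-/- (1) and CBE-/- (2), both carry the genotype label IGCR1-/-, the Eµ-deleted line carries the label Eµ-/-, and the line they are set against is labelled wild type (WT). Each genotype other than IGCR1-/- is therefore known from 1 line, so genotype and line cannot be told apart. Whether the libraries of each line are separate cultures is not stated in the labels, and the p-values therefore rest on spread between libraries that may be technical.

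In pro-B cells the V, D and J segments of IgH are joined by the RAG recombinase. IGCR1, which lies between V and D, is a control region whose CTCF-binding elements separate the D and J end of the locus from the V segments, and Eµ is the enhancer between the J segments and the first constant gene. The constant genes lie towards the centromere and end in a 3′ regulatory region, with Tmem121, Crip1, Crip2 and Mta1 as the next genes outward. The V segments run towards the telomere. Adam6a and Adam6b sit between V and D, beside IGCR1, and distances below are measured from their span (mm9 chr12:114727776-114784625) to the nearer end of each gene.

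Reads implied by the width of the deposited intervals summed to between 30.7 and 49.3 M per library, which is not a measured depth. Libraries of a line correlated at 0.978 to 0.992 over the genes tested, and libraries of different lines at 0.926 to 0.964. Of 16 pro-B markers, 14 to 16 reached 1 FPKM in each library, the exceptions being Rag1 and Rag2 in the WT libraries, and their summed level was between 6018 and 8253 FPKM. Myeloid markers summed to at most 8.85 FPKM, erythroid markers to at most 0.268 FPKM and stromal markers to at most 0.0349 FPKM. T-lineage markers summed to between 17.0 and 82.2 FPKM, highest in WT, with Lck the single one of 7 at 1 FPKM or more. IgH segments were not analysed here, and the deletions could not be checked in these values. Adam6b was listed at 0.0576 and 0.0545 FPKM in CBE line 1, 0.107 and 0.123 FPKM in CBE line 2, 0 in both Eµ-deleted libraries, and 0.0880 and 0.0921 FPKM in WT. Its near-identical neighbour Adam6a was at most 0.0311 FPKM in every library, and reads may be shared between the pair.

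Transcript levels were uneven along the interval. Crip1, which encodes a small LIM-domain protein, averaged 2803 FPKM over the 8 libraries, and 2010107E04Rik (a subunit of the mitochondrial ATP synthase, RefSeq name Atp5mpl) averaged 634.1 FPKM. At the low end, 12 members were under 1 FPKM in at least 1 line, and 8 of these had no WT library at 1 FPKM or more: Ccdc85c, Degs2, Begain, Ckb, Ppp1r13b, Rd3l, Btbd6 and Crip2. Members of this kind passed the filter through the lines in which they were high, so a difference between lines was built into their selection. With a mean over all libraries of at least 1 FPKM as the filter, 66 members remained. Just inside the threshold lay Begain, at 0.686 and 1.20 FPKM in CBE line 1, 0.376 and 0.365 FPKM in CBE line 2, 0.870 and 1.35 FPKM in the Eµ-deleted line, and 0.435 and 0.607 FPKM in WT. Just outside it lay the VIP receptor gene Vipr2, at 0.279 and 0.236 FPKM in CBE line 1, 0.464 and 0.488 FPKM in CBE line 2, 0.902 and 0.872 FPKM in the Eµ-deleted line, and 0.419 and 0.310 FPKM in WT.

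The first question was how the region differed from WT in each mutant line. In CBE line 1, 10 members rose and 4 fell among 69, which is 20.3% called, against 19.4% of all genes tested (10.9% higher and 8.54% lower). In CBE line 2, 12 rose and 4 fell, 23.2% called, against 18.7% of all genes (10.5% higher and 8.19% lower). With Eµ deleted, 11 rose and 3 fell, 20.3% called, against 21.8% of all genes (11.3% higher and 10.4% lower). A gene was called where the Benjamini-Hochberg adjusted p of limma on log2(FPKM + 1) over all 10479 genes was below the threshold of 0.05. This fit had no replicate term, although the replicate numbers met the condition set beforehand for pairing libraries. An alternative fit with the replicate number as a block called more genes. The region as a whole was called about as often as the rest of the genome. Libraries that did not overlap with WT were common at 2 libraries a line, in 47 members in CBE line 1 (68.1%, against 62.7% of all genes), 44 in CBE line 2 (63.8%, against 70.5%) and 44 with Eµ deleted (63.8%, against 62.5%). In RNA of whole cultures, fewer cells with a transcript and less RNA per cell cannot be told apart.

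The median log2 difference of the members was 0.12 in CBE line 1, 0.10 in CBE line 2 and 0.13 with Eµ deleted, beside 0.02, 0.04 and 0.01 over all genes tested. Among 20 other regions (the rest of chromosome 12 and each other chromosome with at least 50 genes tested), the share called ranged from 14.8 to 42.1% in CBE line 1, from 14.1 to 40.0% in CBE line 2 and from 17.4 to 46.1% in the Eµ-deleted line. The highest shares in each line were on chromosomes 18 and 19. The share was above that of the members in 8, 2 and 10 of these regions, and the median log2 difference in 1, 2 and 0. With the replicate number as a block, the members called numbered 22 in CBE line 1 (30.0% of all genes) and 23 in the Eµ-deleted line (34.0% of all genes). Single libraries also moved these counts: without WT replicate 1 or 2 CBE line 1 had 8 and 6 (8.95 and 7.55% of all genes), CBE line 2 had 5 and 8 (8.99 and 8.4% of all genes), and the Eµ-deleted line had 4 and 5 (8.52 and 7.55% of all genes). CBE line 2 had 4 and 4 without its own replicate 1 or 2 (8.11 and 8.07% of all genes), and the Eµ-deleted line 24 and 9 without its replicate 1 or 2 (31.3 and 14.4% of all genes). Calls over all genes moved the same way.

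**Figure D1:**
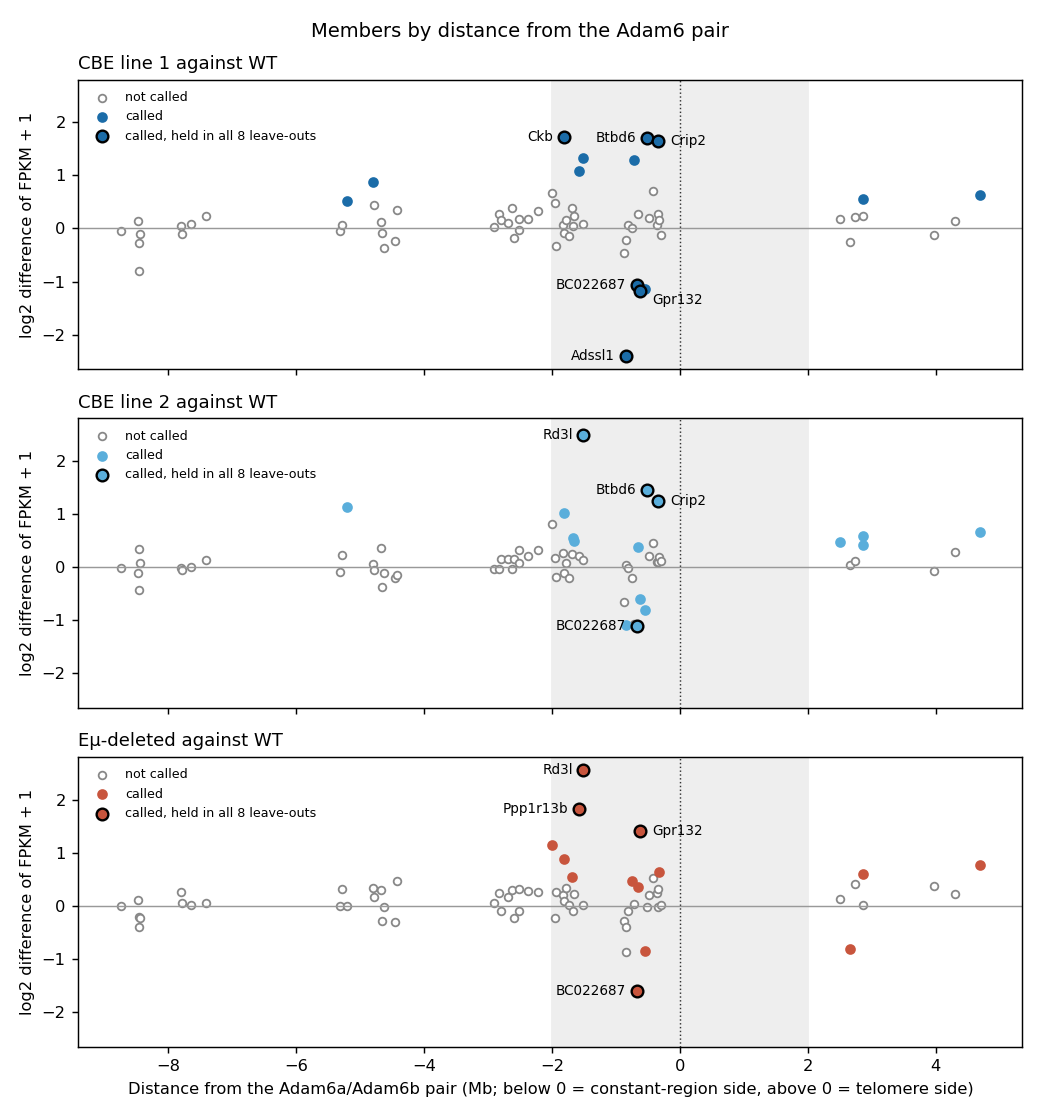
Log2 difference of FPKM + 1 from WT for each of the 69 members (points) against its distance in Mb from the Adam6 pair, with panels for CBE line 1, CBE line 2 and Eµ-deleted cells from top to bottom. Filled points were called, black rims mark calls that held in all 8 leave-outs of a library, and the grey band marks 2 Mb on either side of the pair. All rimmed points lie inside the band, and a gene that was not tested in some leave-out has no rim.

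Under this filter, the share of members called was higher within 2 Mb of the Adam6 pair than farther out. Of the 31 members within 2 Mb of the Adam6 pair, 10 were called in CBE line 1 (32.3%), 11 in CBE line 2 (35.5%) and 10 with Eµ deleted (32.3%). Of the 38 members farther out, 4 (10.5%), 5 (13.2%) and 4 (10.5%) were called in these lines. Over all genes tested, 19.4, 18.7 and 21.8% were called. The 31 near members all lay on the constant-region side, since no member lay within 2 Mb on the telomere side. Of the near members, Ckb, Ppp1r13b, Rd3l, Btbd6 and Crip2 had no WT library at 1 FPKM or more. The same was true of Ccdc85c, Degs2 and Begain among the far members. These genes passed the filter through mutant lines, so a difference from WT was built into their selection. Among members with a mean of 5 FPKM or more, given below, near and far members were called equally often in CBE line 2 and nearly so in CBE line 1. In the Eµ-deleted line more near than far members were still called. The far members pool both sides, and the few on the telomere side were called at a share above that of all genes in each line. The difference between near and far members is a description and was not tested.

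In classes of distance, 7 of 18 members within 1 Mb on the constant-region side were called in CBE line 1, 7 in CBE line 2 and 6 with Eµ deleted. At 1 to 2 Mb, 3, 4 and 4 of 13 members were called in these lines. At 2 to 3 Mb on this side, 0, 0 and 1 of 11 members were called, and at 5 to 10 Mb 1, 1 and 0 of 12. The telomere side held 8 members, all more than 2 Mb away, of which 2, 4 and 3 were called. Across the 69 members, the size of the log2 difference fell with distance, with a Spearman rho of -0.27 in CBE line 1, -0.35 in CBE line 2 and -0.24 with Eµ deleted. These points share libraries, and the size of the difference was also negatively correlated with mean level (rho -0.40, -0.37 and -0.22). When members were limited to a mean of 5 FPKM or more, 46 were left, 23 near and 23 far. Of these, 3, 2 and 4 near members and 2, 2 and 1 far members were called in the 3 lines, against 13.4, 13.0 and 16.6% of all genes under the same filter.

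**Figure D2:**
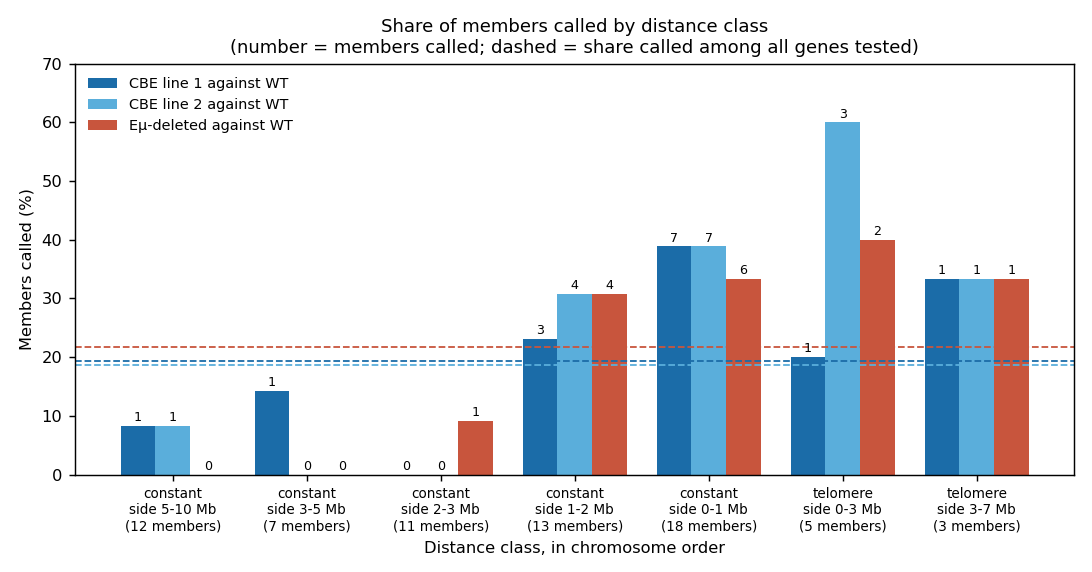
Share of members called (%, bars, with the number called above each) in 7 distance classes in chromosome order, in CBE line 1, CBE line 2 and Eµ-deleted cells against WT. Dashed lines give the share of all genes tested that was called in each comparison (19.4, 18.7 and 21.8%). The class within 1 Mb on the constant-region side held 7, 7 and 6 called members of 18.

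Calls that held in all 8 fits with 1 library left out were fewer. A gene that was not tested in some of these fits counted as not held. In CBE line 1 these were Ckb, Adssl1, BC022687, Gpr132, Btbd6 and Crip2, which is 6 members (8.70%, against 6.49% of all genes). In CBE line 2 they were Rd3l, BC022687, Btbd6 and Crip2 (5.80%, against 6.38% of all genes), and in the Eµ-deleted line Ppp1r13b, Rd3l, BC022687 and Gpr132 (5.80%, against 6.29% of all genes). All of them lay within 2 Mb of the Adam6 pair, and 0 of the 38 members farther out held in any of these 3 comparisons. The far member Ccdc85c was left out by this rule. It passed the filter through the CBE line 2 libraries alone and was not tested without either of them. That its CBE line 2 call was kept in the other 6 fits is therefore not independent support. Apart from Adssl1, each of the genes that held was below 1 FPKM in at least 1 line, so the filter itself favoured a difference between lines.

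The promoters of 3 of these genes are shown because Btbd6 and Crip2 rose in both CBE lines, while Gpr132 moved in opposite directions in the CBE and Eµ-deleted lines. The sequences are RefSeq promoters of the GRCm38.p6 build, 250 bases before to 50 bases after the annotated start, and capitals mark the GC box GGGCGG or its complement CCGCCC and the E-box CAGCTG. Of the 2 promoters listed for each of Btbd6 and Crip2, the first is shown. Btbd6 (chr12:112976232-112976531, plus strand) holds 3 GC boxes and 19 CpG. Crip2 (chr12:113139986-113140285, plus strand) holds 4 GC boxes and 29 CpG. Gpr132 (chr12:112860867-112861166, minus strand) holds 0 GC boxes, 1 CAGCTG and 7 CpG.
Btbd6: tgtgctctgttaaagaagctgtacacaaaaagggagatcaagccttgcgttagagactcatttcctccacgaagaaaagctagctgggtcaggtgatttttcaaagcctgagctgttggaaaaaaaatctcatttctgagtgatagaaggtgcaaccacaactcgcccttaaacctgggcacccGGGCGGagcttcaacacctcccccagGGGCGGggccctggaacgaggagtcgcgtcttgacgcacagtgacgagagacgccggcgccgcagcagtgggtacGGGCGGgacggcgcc
Crip2: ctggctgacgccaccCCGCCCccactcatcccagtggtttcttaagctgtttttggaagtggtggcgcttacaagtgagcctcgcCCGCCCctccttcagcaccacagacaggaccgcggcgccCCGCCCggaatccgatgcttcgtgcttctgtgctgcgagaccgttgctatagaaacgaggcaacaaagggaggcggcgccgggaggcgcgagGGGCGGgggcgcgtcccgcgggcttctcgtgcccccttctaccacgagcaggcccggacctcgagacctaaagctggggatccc
Gpr132: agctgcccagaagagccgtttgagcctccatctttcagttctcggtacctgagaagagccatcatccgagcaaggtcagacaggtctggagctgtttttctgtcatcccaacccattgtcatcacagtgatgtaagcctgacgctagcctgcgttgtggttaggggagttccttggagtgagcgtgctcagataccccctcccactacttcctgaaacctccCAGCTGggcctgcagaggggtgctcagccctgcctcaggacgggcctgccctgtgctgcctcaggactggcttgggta
Searched on both strands, the GC box was found in 77.0% of the 61 members with a listed promoter and in 35.9% of all 27025 genes with one. The first promoter listed for each gene was used. The members' median CpG number was 29, against 7 over all promoters. CAGCTG was found in 9.84% of members and 16.1% of all promoters, and the YY1-type letters AAGATGGC in 3.28% and 2.88%. The members were chosen as expressed genes, while the full list of promoters was not limited to expressed genes, so these sets are unlike. Within the members, the GC box was found in 82.6% of 23 called in any mutant line and 73.7% of 38 called in none. Their median CpG numbers were 26 and 31. In the same order, CAGCTG was found in 21.7 and 2.63%, and the TATA box letters TATAAA in 13.0 and 0%. CCAAT was found in 34.8 and 36.8%, and AAGATGGC in 0 and 5.26%. These letter counts are descriptions and were not tested.

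Near the constant end of IgH lie Tmem121, 4930427A07Rik, Crip1, Crip2 and Mta1, of which Tmem121, Crip1 and Mta1 were not called against WT in any single mutant line. Tmem121, a transmembrane protein gene, was at 70.5 and 107.7 FPKM in CBE line 1, 95.7 and 112.5 FPKM in CBE line 2, 98.4 and 95.4 FPKM in the Eµ-deleted line, and 90.7 and 100.04 FPKM in WT. Its log2 differences from WT were -0.13 (SE 0.20), 0.12 (SE 0.20) and 0.02 (SE 0.20) in the 3 lines. Crip1 was at 3253 and 3018 FPKM in CBE line 1, 2945 and 2640 FPKM in CBE line 2, 3492 and 1879 FPKM in the Eµ-deleted line, and 2601 and 2599 FPKM in WT. The Eµ-deleted libraries lay on either side of all the others for Crip1. Mta1, a subunit of the NuRD chromatin remodelling complex, differed from WT by 0.07, 0.10 and 0.25 (SE 0.18 each).

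Crip2, the LIM-domain neighbour of Crip1 (mm9 chr12:114378447-114383717), was higher in the CBE lines. It was at 3.72 and 4.34 FPKM in CBE line 1, 2.72 and 2.92 FPKM in CBE line 2, 1.10 and 0.900 FPKM in the Eµ-deleted line, and 0.535 and 0.672 FPKM in WT. All 4 CBE libraries lay above both Eµ-deleted and both WT libraries. Crip2 passed the filter through mutant lines, so the p-values below are not independent support for its differences. Against WT the log2 difference was 1.65 (SE 0.11, limma adjusted p = 0.000130) in CBE line 1 and 1.25 (SE 0.11, adjusted p = 0.000380) in CBE line 2. In the Eµ-deleted line it was 0.32 (SE 0.11, adjusted p = 0.0861) and not called, although a pseudocount of 0.1 (adjusted p = 0.0438) or TPM scaling (0.0456) put it past the threshold. The Eµ-deleted line was lower than the mean of the CBE lines by 1.13 on the log2 scale (difference -1.13, SE 0.10, adjusted p = 0.000516).

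Btbd6 (mm9 chr12:114214693-114217151), whose product has a BTB domain of the kind that links substrates to cullin 3 ubiquitin ligases, was also higher in the CBE lines. It was at 2.5 and 2.32 FPKM in CBE line 1, 2.06 and 1.69 FPKM in CBE line 2, 0.0188 and 0.0496 FPKM in the Eµ-deleted line, and 0.0433 and 0.0486 FPKM in WT. The implied reads were 288 and 206, 185 and 169, 1 and 4, and 5 and 4 in these libraries, so Btbd6 was close to the floor outside the CBE lines. Btbd6 passed the filter through the CBE lines alone, so the p-values below are not independent support for its differences. The log2 difference from WT was 1.71 (SE 0.10, adjusted p = 6.58e-05) in CBE line 1 and 1.45 (SE 0.10, adjusted p = 0.000109) in CBE line 2. The Eµ-deleted line differed from the mean of the CBE lines by -1.60 (SE 0.08, adjusted p = 6.45e-05). All 2459 bases of Btbd6 lie inside Brf1 on the other strand, and the strand setting of the counting is not stated, so its level is uncertain. Brf1, a subunit of the RNA polymerase III factor TFIIIB, was at 16.9 and 19.3 FPKM in CBE line 1, 18.3 and 18.3 FPKM in CBE line 2, 16.5 and 19.7 FPKM in the Eµ-deleted line, and 15.2 and 15.9 FPKM in WT, with log2 differences of 0.20, 0.22 and 0.20 (SE 0.12 each), none called.

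Gpr132 (mm9 chr12:114089087-114099127), a proton-sensing G protein-coupled receptor of lymphocytes, fell in the CBE lines and rose in the Eµ-deleted line. It was at 0.0592 and 0.0588 FPKM in CBE line 1, 0.588 and 0.578 FPKM in CBE line 2, 5.39 and 5.47 FPKM in the Eµ-deleted line, and 1.58 and 1.25 FPKM in WT. The 4 lines did not overlap, with CBE line 1 lowest and the Eµ-deleted line highest. Log2 differences from WT were -1.19 (SE 0.10, adjusted p = 0.000324) in CBE line 1, -0.61 (SE 0.10, adjusted p = 0.00621) in CBE line 2 and 1.42 (SE 0.10, adjusted p = 0.000150) with Eµ deleted. The CBE line 2 call was lost without WT replicate 1 (0.0643) or either CBE line 2 replicate (0.0628 and 0.0679). Between the Eµ-deleted line and the mean of the CBE lines the difference was 2.31 (SE 0.08, adjusted p = 1.63e-05).

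**Figure D3:**
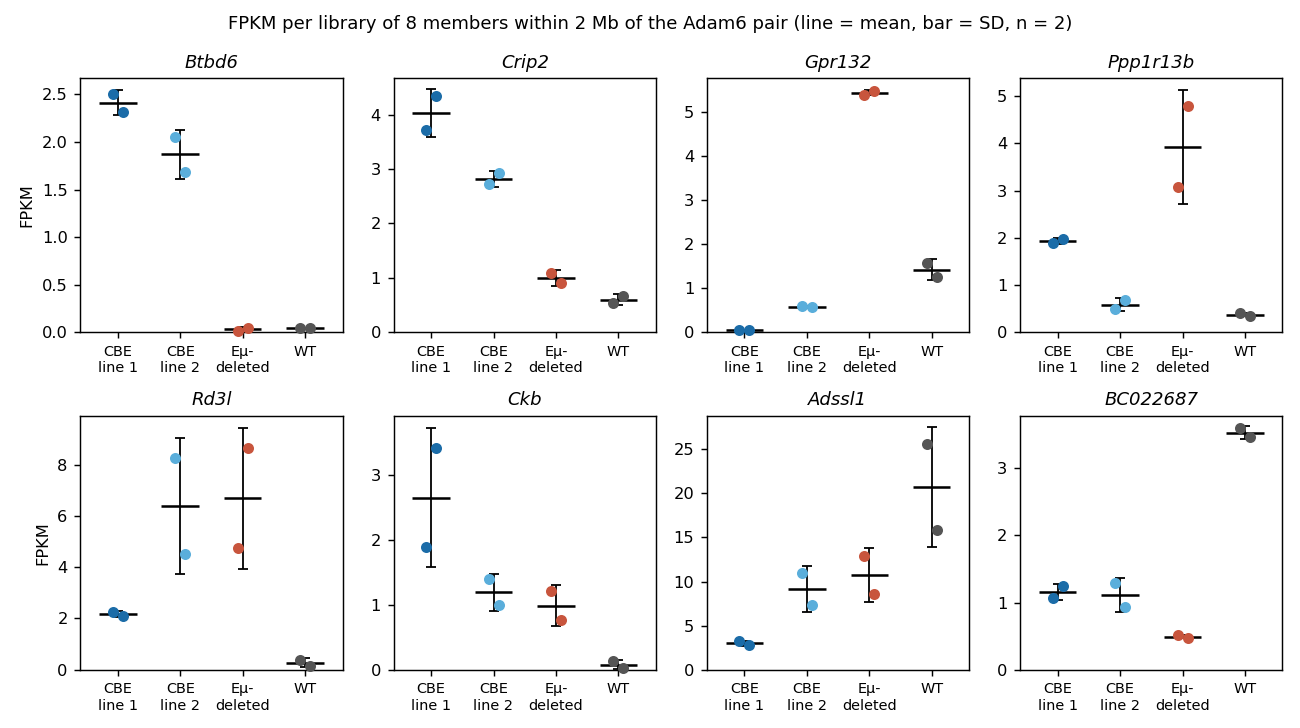
FPKM per library (points) of 8 members within 2 Mb of the Adam6 pair in CBE line 1, CBE line 2, the Eµ-deleted line and WT, with the mean (line) and SD (bar, n = 2). Btbd6 and Crip2 were highest in the CBE lines, Gpr132 at 5.39 and 5.47 FPKM in the Eµ-deleted line, and Adssl1 and BC022687 highest in WT.

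Jag2, which encodes a Notch ligand and lies between Gpr132 and Nudt14, did not pass the filter and was not tested. It was listed at 0.0275 and 0.0488 FPKM in CBE line 1, 0.171 and 0.0850 FPKM in CBE line 2, 0.0523 and 0.0734 FPKM in the Eµ-deleted line, and 0.899 and 1.29 FPKM in WT. All 6 mutant libraries lay below both WT libraries, with 8 to 36 implied reads against 310 and 282.

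BC022687 (mm9 chr12:114047186-114054456), a gene model with no entry in the RefSeq table, fell in every mutant line. It was at 1.07 and 1.24 FPKM in CBE line 1, 1.29 and 0.927 FPKM in CBE line 2, 0.510 and 0.475 FPKM in the Eµ-deleted line, and 3.59 and 3.46 FPKM in WT. Log2 differences were -1.07 (SE 0.11, adjusted p = 0.000906), -1.11 (SE 0.11, adjusted p = 0.000706) and -1.60 (SE 0.11, adjusted p = 0.000152). The Eµ-deleted line was also below the mean of the CBE lines (difference -0.51, SE 0.10, adjusted p = 0.0173), a call lost without CBE line 2 replicate 1 (0.0669) or Eµ-deleted replicate 2 (0.0877).

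Nudt14, a UDP-sugar hydrolase gene, fell as well, at 8.08 and 6.08 FPKM in CBE line 1, 10.7 and 7.72 FPKM in CBE line 2, 10.2 and 7.60 FPKM in the Eµ-deleted line, and 18.3 and 15.3 FPKM in WT. The mutant libraries did not reach either WT library. The log2 differences of -1.14 (SE 0.21, adjusted p = 0.0119), -0.81 (SE 0.21, adjusted p = 0.0430) and -0.85 (SE 0.21, adjusted p = 0.0336) stayed below 0 in every leave-out, at -1.32 to -0.96, -1.02 to -0.60 and -1.04 to -0.66. Each call was lost without WT replicate 1 (adjusted p = 0.0860, 0.226 and 0.188) and without WT replicate 2 (0.0516, 0.117 and 0.104). They were also lost without CBE line 1 replicate 2 (0.0546), without CBE line 2 replicate 1 or 2 (0.0628 and 0.245) and without Eµ-deleted replicate 2 (0.136). No filter on low values (0.0728 and 0.0636 in CBE line 2 and the Eµ-deleted line) gave the same loss.

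Adssl1 (mm9 chr12:113858258-113879566), the muscle-type adenylosuccinate synthase of the purine nucleotide cycle, was lowest in CBE line 1. It was at 3.21 and 2.79 FPKM in CBE line 1, 10.9 and 7.31 FPKM in CBE line 2, 12.9 and 8.61 FPKM in the Eµ-deleted line, and 25.5 and 15.9 FPKM in WT. All mutant libraries lay below both WT libraries, and those of CBE line 1 below all others. The log2 difference was -2.41 (SE 0.29, adjusted p = 0.00177) in CBE line 1 and held in every fit with a library left out. In CBE line 2 it was -1.09 (SE 0.29, adjusted p = 0.0430), lost without WT replicate 1 (0.224), CBE line 1 replicate 1 (0.0631) or 2 (0.0638), and CBE line 2 replicate 1 (0.0699) or 2 (0.238). In the Eµ-deleted line it was -0.87 (SE 0.29, adjusted p = 0.0764), called with the replicate block (adjusted p = 0.00461) or without Eµ-deleted replicate 1 (0.0485).

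Pld4, an exonuclease of endolysosomes that degrades single-stranded nucleic acids, separated the CBE lines from each other. It was at 16.3 and 27.8 FPKM in CBE line 1, 3.53 and 3.20 FPKM in CBE line 2, 6.37 and 10.8 FPKM in the Eµ-deleted line, and 9.58 and 6.85 FPKM in WT. CBE line 1 lay above WT and CBE line 2 below it, with no overlap, while the Eµ-deleted libraries spanned WT. CBE line 2 differed from CBE line 1 by -2.36 (SE 0.31, adjusted p = 0.00497), a call lost without CBE line 2 replicate 2 (0.0560). Against WT the difference was 1.29 (SE 0.31, adjusted p = 0.0310) in CBE line 1 and -1.06 (SE 0.31, adjusted p = 0.0603) in CBE line 2, where the replicate block called it (0.0419). The CBE line 1 call was lost without WT replicate 1 (0.0755) or 2 (0.189), CBE line 1 replicate 2 (0.108), or CBE line 2 replicate 1 (0.0597) or 2 (0.0596). Leaving out CBE line 1 replicate 1 or 2 (0.0390 and 0.0396) or Eµ-deleted replicate 1 or 2 (0.0411 and 0.0414) brought the CBE line 2 difference past the threshold.

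Other members within 1 Mb included Cdca4, Cep170b, Akt1, Inf2, Siva1 and Pacs2. Cdca4, a cell cycle-linked regulator of transcription, was at 46.3 and 51.8 FPKM in CBE line 1, 53.7 and 52.1 FPKM in CBE line 2, 49.1 and 55.3 FPKM in the Eµ-deleted line, and 40.2 and 40.4 FPKM in WT. It was called in CBE line 2 (log2 difference 0.38, SE 0.10, adjusted p = 0.0408) and the Eµ-deleted line (0.36, SE 0.10, adjusted p = 0.0455), and both calls were lost without WT replicate 1 (0.203 and 0.213) or 2 (0.204 and 0.200), or CBE line 2 replicate 1 (0.231 and 0.102) or 2 (0.190 and 0.102). The Eµ-deleted call was also lost without Eµ-deleted replicate 2 (0.130).

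Cep170b, of a centrosomal protein family, and 4930427A07Rik (RefSeq name Tedc1, a partner of delta- and epsilon-tubulin) were called in the Eµ-deleted line and in neither CBE line. Cep170b was at 7.72 and 8.01 FPKM in CBE line 1, 6.52 and 6.68 FPKM in CBE line 2, 10.4 and 11.98 FPKM in the Eµ-deleted line, and 8.41 and 7.23 FPKM in WT. Tedc1 was at 49.1 and 59.7 FPKM in CBE line 1, 51.7 and 59.8 FPKM in CBE line 2, 73.9 and 77.9 FPKM in the Eµ-deleted line, and 46.5 and 50.5 FPKM in WT. For both genes the Eµ-deleted libraries lay above all the others. Against the mean of the CBE lines the Eµ-deleted line was higher by 0.57 for Cep170b (SE 0.10, adjusted p = 0.0120) and 0.46 for Tedc1 (SE 0.11, adjusted p = 0.0415). Both calls depended on single libraries: that of Cep170b was lost without CBE line 2 replicate 1 (0.0600) or 2 (0.0550) and without Eµ-deleted replicate 2 (0.0625), and that of Tedc1 in 7 of 8 leave-outs (0.0605 to 0.167), all but CBE line 1 replicate 2.

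Against WT, Cep170b differed by 0.47 (SE 0.11, adjusted p = 0.0286) and Tedc1 by 0.64 (SE 0.13, adjusted p = 0.0153) with Eµ deleted. These calls too were lost for Cep170b without WT replicate 1 (0.0739) or 2 (0.192), CBE line 2 replicate 1 (0.0682) or 2 (0.0681), and without Eµ-deleted replicate 2 (0.0945), and for Tedc1 without WT replicate 1 (0.115) or 2 (0.0756) or Eµ-deleted replicate 2 (0.0618). Akt1, the serine/threonine kinase of the PI3K pathway, was not called, with differences of 0.07, -0.02 and -0.09 (SE 0.18 each). Inf2, an actin-binding formin, had differences of -0.46, -0.66 and -0.29 (SE 0.21 each), not called here but called in all 3 lines with the replicate block (adjusted p = 0.0121, 0.00308 and 0.0494). Siva1, a proapoptotic gene, had -0.40 (SE 0.14, adjusted p = 0.0850) with Eµ deleted, called with the block (0.0134) or without Eµ-deleted replicate 1 (0.0384). Pacs2, a sorting protein gene, had 0.71 (SE 0.26, adjusted p = 0.109) in CBE line 1, called with the block (0.0389) or without Eµ-deleted replicate 1 (0.0381) or 2 (0.0384).

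**Figure D4:**
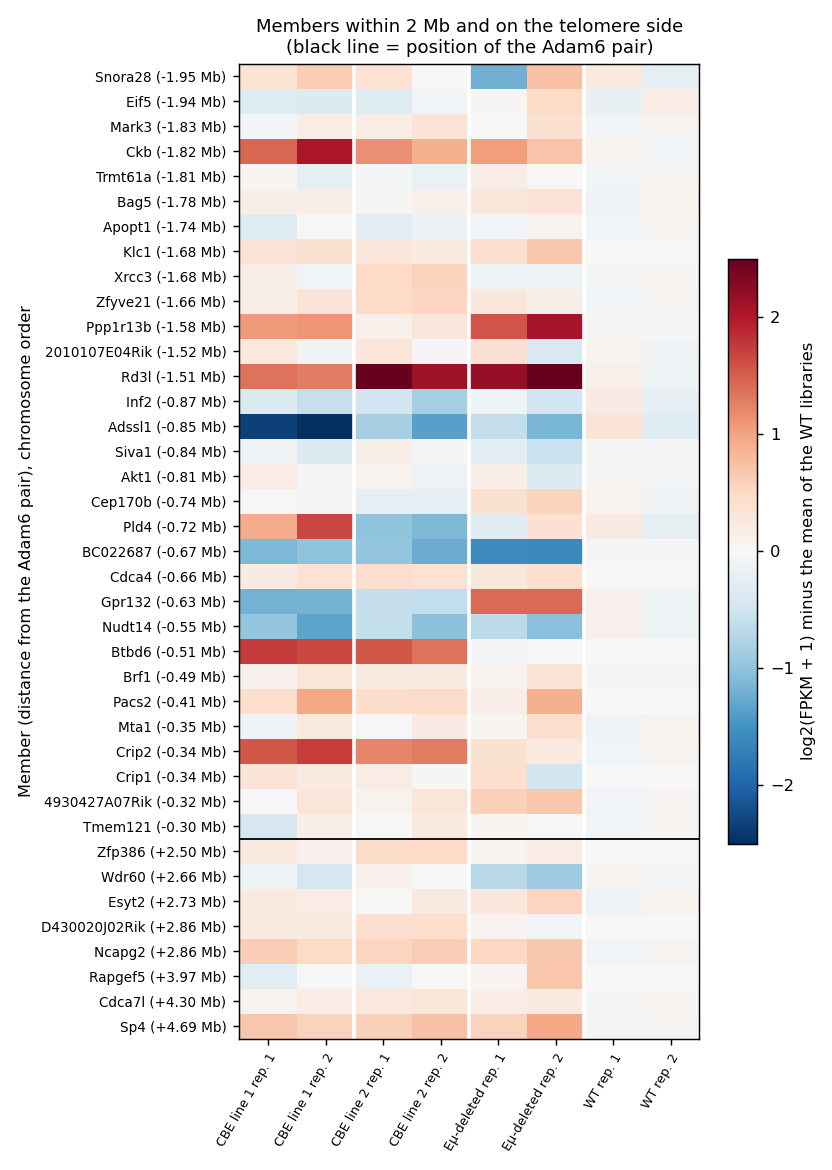
Log2(FPKM + 1) minus the mean of the WT libraries (colour) in each library (columns) for the 31 members within 2 Mb and the 8 on the telomere side of the Adam6 pair (rows, in chromosome order). Rd3l, Ckb and Ppp1r13b are red in the mutant lines, Adssl1, BC022687 and Nudt14 are blue, and Gpr132 is blue in the CBE lines and red in the Eµ-deleted line.

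Between 1 and 2 Mb on the constant-region side, Ckb, Ppp1r13b and Rd3l were below 1 FPKM in both WT libraries, and each was called higher in at least 2 mutant lines. Each passed the filter through mutant lines, so their p-values against WT are not independent support for a difference. Ckb (mm9 chr12:112907566-112910549), the brain-type creatine kinase that buffers ATP, was at 1.89 and 3.42 FPKM in CBE line 1, 1.39 and 0.994 FPKM in CBE line 2, 1.21 and 0.762 FPKM in the Eµ-deleted line, and 0.130 and 0.0271 FPKM in WT. The WT libraries held 15 and 2 implied reads, and all 6 mutant libraries lay above them. Log2 differences were 1.73 (SE 0.22, adjusted p = 0.00242) in CBE line 1, 1.02 (SE 0.22, adjusted p = 0.0208) in CBE line 2 and 0.87 (SE 0.22, adjusted p = 0.0343) with Eµ deleted. The CBE line 2 call was lost without WT replicate 1 (0.0884) or 2 (0.132), or CBE line 2 replicate 1 (0.138) or 2 (0.0697). The Eµ-deleted call was lost in 6 of 8 leave-outs (0.0579 to 0.175), all but the CBE line 1 libraries, and both were lost with a pseudocount of 5 (0.0856 and 0.124) or quantile scaling (0.132 and 0.122).

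Ppp1r13b (mm9 chr12:113066669-113146266) encodes ASPP1, which binds p53 and stimulates its proapoptotic targets. It was at 1.89 and 1.97 FPKM in CBE line 1, 0.495 and 0.681 FPKM in CBE line 2, 3.08 and 4.78 FPKM in the Eµ-deleted line, and 0.401 and 0.356 FPKM in WT. The Eµ-deleted line was highest and CBE line 2 closest to WT, with no overlap between lines. Its implied reads in WT were 150 and 84. In CBE line 2 it was not called against WT (0.20, adjusted p = 0.470). Against WT the difference was 1.09 (SE 0.17, adjusted p = 0.00519) in CBE line 1, lost without WT replicate 2 (0.0504), and 1.82 (SE 0.17, adjusted p = 0.000563) with Eµ deleted, which held in every leave-out. The Eµ-deleted line was above the mean of the CBE lines by 1.17 (SE 0.15, adjusted p = 0.00305).

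Rd3l (mm9 chr12:113217534-113218962) was at 2.25 and 2.09 FPKM in CBE line 1, 8.28 and 4.51 FPKM in CBE line 2, 4.75 and 8.64 FPKM in the Eµ-deleted line, and 0.395 and 0.155 FPKM in WT. All mutant libraries lay above WT, and CBE line 2 and the Eµ-deleted line overlapped each other. Log2 differences from WT were 1.32 (SE 0.31, adjusted p = 0.0287), 2.49 (SE 0.31, adjusted p = 0.00195) and 2.55 (SE 0.31, adjusted p = 0.00197). The call in CBE line 1 was lost without WT replicate 1 (0.0932) or 2 (0.173), or CBE line 1 replicate 1 (0.114) or 2 (0.0828). Rd3l lies inside Tdrd9 on the other strand over 1429 bases, so its level is uncertain. Tdrd9, which acts in piRNA silencing in the germ line, was below the filter at 0.0115 and 0.0285 FPKM in CBE line 1, 0.0232 and 0.0213 FPKM in CBE line 2, 0.0474 and 0.0691 FPKM in the Eµ-deleted line, and 0.00239 and 0 FPKM in WT.

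Xrcc3 and Zfyve21, next to each other, were called in CBE line 2 and in neither other mutant line. Xrcc3, a DNA repair gene, was at 5.09 and 4.24 FPKM in CBE line 1, 6.75 and 7.21 FPKM in CBE line 2, 4.11 and 4.12 FPKM in the Eµ-deleted line, and 4.28 and 4.68 FPKM in WT. The CBE line 2 libraries lay above all others. Xrcc3 shares 4652 bases with Klc1 on the other strand, whose level was higher, so its level is uncertain. The difference from WT was 0.54 (SE 0.11, adjusted p = 0.0152), and CBE line 2 also differed from CBE line 1 by 0.50 (SE 0.11, adjusted p = 0.0346). For Zfyve21, a FYVE-domain protein gene, the difference from WT in CBE line 2 was 0.50 (SE 0.11, adjusted p = 0.0229), while that from CBE line 1 was not called (0.27, adjusted p = 0.210). Against WT, both calls were lost without WT replicate 1 (0.127 and 0.170) or 2 (0.0779 and 0.0847), or CBE line 2 replicate 1 (0.0845 and 0.119) or 2 (0.132 and 0.163). The Xrcc3 difference between the CBE lines was lost without WT replicate 1 (0.0804) or 2 (0.0809), CBE line 1 replicate 2 (0.110), or CBE line 2 replicate 1 (0.172) or 2 (0.259).

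Klc1, a light chain of the kinesin-1 motor, was at 53.9 and 54.5 FPKM in CBE line 1, 50.7 and 48.7 FPKM in CBE line 2, 55.0 and 67.2 FPKM in the Eµ-deleted line, and 42.003 and 40.9 FPKM in WT. All 6 mutant libraries lay above WT. It was called in the Eµ-deleted line (0.54, SE 0.11, adjusted p = 0.0166), a call lost without WT replicate 1 (0.0971) or 2 (0.117). In CBE line 1 the difference was 0.38 (SE 0.11, adjusted p = 0.0578), called with the replicate block (0.0369) or without Eµ-deleted replicate 1 (0.0145) or 2 (0.0143). In CBE line 2 it was 0.26 (SE 0.11, adjusted p = 0.171), called without Eµ-deleted replicate 1 (0.0482) or 2 (0.0475). Eif5, a translation initiation factor in the same stretch, had differences of -0.33, -0.19 and 0.26 (SE 0.19 each), none called.

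Beyond 2 Mb on the constant-region side, 3 named genes were called. Ccdc85c, a coiled-coil protein of cell junctions, was at 0.384 and 0.475 FPKM in CBE line 1 and 1.31 and 1.11 FPKM in CBE line 2, and was listed at 0 in both Eµ-deleted and both WT libraries. In WT, 3 reads of Ccdc85c would be worth 0.0262 and 0.0400 FPKM. It was called against WT in CBE line 1 (limma adjusted p = 0.00858) and CBE line 2 (adjusted p = 0.000210), and no fold is given against a line listed at 0. Ccdc85c passed the filter through the CBE line 2 libraries alone, so that line's difference from the others was built into its selection. The call in CBE line 1 was lost without WT replicate 1 (0.0762) or 2 (0.0856), and without either CBE line 2 library Ccdc85c fell below the filter and was not tested.

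Evl, an actin regulator of the Ena/VASP family, was at 94.8 and 74.0 FPKM in CBE line 1, 49.7 and 45.4 FPKM in CBE line 2, 51.4 and 63.4 FPKM in the Eµ-deleted line, and 49.4 and 41.6 FPKM in WT. CBE line 1 lay above all the other libraries. Evl shares 1724 bases with Degs2 on the other strand, and reads there cannot be assigned. Its difference from WT was 0.87 (SE 0.17, adjusted p = 0.0128) in CBE line 1, lost without WT replicate 2 (0.107) or CBE line 1 replicate 1 (0.0620). Gm266, an unnamed gene model at the 2 Mb limit, was at 4.96 and 10.9 FPKM in CBE line 1, 8.17 and 8.47 FPKM in CBE line 2, 8.85 and 13.1 FPKM in the Eµ-deleted line, and 4.52 and 4.12 FPKM in WT. All its mutant libraries were above WT, and it was called in the Eµ-deleted line (1.15, SE 0.32, adjusted p = 0.0472). This call was lost without WT replicate 1 (0.165) or 2 (0.195), CBE line 2 replicate 1 (0.0834) or 2 (0.0835), without Eµ-deleted replicate 2 (0.187), and with no filter on low values (0.0900). In CBE line 1 Gm266 was called without CBE line 1 replicate 1 (0.0254), and in CBE line 2 without CBE line 1 replicate 1 (0.0306) or 2 (0.0312).

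Yy1, Traf3 and Hsp90aa1, farther out on this flank, were not called against WT in any single mutant line. Yy1, a zinc finger factor that binds within IgH and takes part in its contraction, was at 40.2 and 40.5 FPKM in CBE line 1, 44.7 and 51.3 FPKM in CBE line 2, 40.5 and 51.7 FPKM in the Eµ-deleted line, and 34.1 and 40.5 FPKM in WT. Its differences were 0.12, 0.36 and 0.30 (SE 0.15 each), none called, although CBE line 2 was called with the replicate block (0.0374). Traf3, a restraint on non-canonical NF-κB signalling in B cells, had differences of 0.33, 0.33 and 0.26 (SE 0.10 each). It missed the threshold in CBE line 1 (adjusted p = 0.0580) and CBE line 2 (0.0575) and passed it there with the block (0.0408 and 0.0406). The inducible chaperone gene Hsp90aa1 had 0.16, 0.15 and -0.10 (SE 0.39 each), and its libraries differed within each line, at 219.9 and 131.4 FPKM in CBE line 1, 196.5 and 143.9 FPKM in CBE line 2, 203.7 and 98.6 FPKM in the Eµ-deleted line, and 172.6 and 133.9 FPKM in WT.

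Towards the telomere the first measured gene beyond the V segments lay 2.5 Mb from the Adam6 pair. Ncapg2, a condensin II subunit that shapes mitotic chromosomes, rose in every mutant line, at 27.1 and 25.1 FPKM in CBE line 1, 25.7 and 27.5 FPKM in CBE line 2, 25.4 and 28.4 FPKM in the Eµ-deleted line, and 16.6 and 18.3 FPKM in WT. The mutant libraries lay together above WT. Differences were 0.55 (SE 0.10, adjusted p = 0.0118), 0.58 (SE 0.10, adjusted p = 0.00939) and 0.59 (SE 0.10, adjusted p = 0.00898). Each of the 3 was lost without WT replicate 1 (0.102, 0.0909 and 0.0848). That in CBE line 1 was also lost without WT replicate 2 (0.0578) or CBE line 1 replicate 1 (0.0612), and that in CBE line 2 without CBE line 2 replicate 1 (0.0604) or 2 (0.0978).

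Sp4, a zinc finger factor of the Sp family that binds GC boxes, was the farthest member on the telomere side, at 4.69 Mb. It was at 3.41 and 3.09 FPKM in CBE line 1, 3.17 and 3.599 FPKM in CBE line 2, 3.12 and 4.29 FPKM in the Eµ-deleted line, and 1.68 and 1.83 FPKM in WT. All 6 mutant libraries lay above WT here too. Differences were 0.62 (SE 0.14, adjusted p = 0.0235), 0.67 (SE 0.14, adjusted p = 0.0178) and 0.76 (SE 0.14, adjusted p = 0.0108). The 3 calls were lost without WT replicate 1 (0.139, 0.124 and 0.0839) or 2 (0.117, 0.0935 and 0.0675). The CBE line 1 call was also lost without either of its libraries (0.103 and 0.0552) or CBE line 2 replicate 2 (0.0501), and the CBE line 2 call without either of its own (0.0753 and 0.139).

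Zfp386, a Krüppel-type zinc finger gene, was called in CBE line 2 (difference 0.48, SE 0.10, adjusted p = 0.0152), at 9.93 and 8.98 FPKM in CBE line 1, 11.7 and 12.1 FPKM in CBE line 2, 8.66 and 9.50 FPKM in the Eµ-deleted line, and 8.19 and 8.27 FPKM in WT. Its difference between the CBE lines was not called (0.30, adjusted p = 0.113). The WT call was lost without either WT library (0.114 and 0.109) or either CBE line 2 library (0.10 and 0.133). Wdr60, an intermediate chain of the dynein-2 motor of cilia, fell in the Eµ-deleted line. It was at 4.44 and 3.43 FPKM in CBE line 1, 5.34 and 4.84 FPKM in CBE line 2, 2.64 and 2.12 FPKM in the Eµ-deleted line, and 5.11 and 4.67 FPKM in WT. The Eµ-deleted libraries lay below all others. The difference was -0.80 from WT (SE 0.14, adjusted p = 0.00854) and -0.70 from the mean of the CBE lines (SE 0.12, adjusted p = 0.0124). The call from WT was lost without WT replicate 1 (0.0720) or 2 (0.0538), and that from the CBE lines without CBE line 2 replicate 1 (0.0579) or Eµ-deleted replicate 2 (0.0764).

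By role, the 11 measured of 15 transcription and chromatin genes had 2, 3 and 1 members higher and 0 lower, in the order CBE line 1, CBE line 2, Eµ-deleted. All 8 genes of DNA repair, replication and mitosis were measured, with 1, 3 and 2 higher and 0 lower. Among 12 measured of 19 signalling genes, 3, 0 and 3 were higher and 1, 1 and 0 lower. Among 6 measured of 9 metabolism genes, 1 was higher in each line, and 2, 2 and 1 were lower. The 11 measured of 14 genes of protein folding, translation and RNA had 1 call, Zfyve21 in CBE line 2. Over all genes tested 10.9, 10.5 and 11.3% were higher and 8.54, 8.19 and 10.4% lower. The list names are loose. The transcription and chromatin calls include Ccdc85c in both CBE lines, and the signalling calls include Pld4 in CBE line 1 and Cep170b in the Eµ-deleted line. These genes and Zfyve21 are described above in terms other than their list name. The lists were chosen with results of these data known, and no list was tested as a set.

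Other clusters of the interval were silent or nearly so in every line. None of the 6 TCL1 family genes and none of 20 serpin genes passed the filter, and of 8 genes of the imprinted Dlk1-Dio3 domain Begain alone did. Dlk1 and Meg3 were listed at 0 in both WT libraries and reached at most 0.00849 and 0.00957 FPKM elsewhere. The T-lineage factor gene Bcl11b was listed at 0 in 7 of 8 libraries, with 0.00235 FPKM in Eµ-deleted replicate 1.

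Against WT, the mean of the CBE lines had 13 members higher and 4 lower, 24.6% called, against 22.3% of all genes (12.5% higher and 9.78% lower), and 30 did not overlap (43.5%, against 43.7%). In the leave-outs 7 of these calls held throughout (10.1%, against 7.11% of all genes). With quantile scaling the split was 8 higher and 5 lower. Set against the mean of the CBE lines, the Eµ-deleted line had 4 members higher and 7 lower, 15.9% called, against 12.4% of all genes (5.16% higher and 7.25% lower), and 5 and 5 with quantile scaling. Libraries did not overlap in 18 members (26.1%, against 25.6%). Ppp1r13b, Gpr132, Btbd6 and Crip2 held this call in every leave-out (5.80%, against 4.42% of all genes). The count was 4 and 6 without CBE line 2 replicate 1 and 2 (5.96 and 5.88% of all genes), and 6 without Eµ-deleted replicate 2 (7.09% of all genes).

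CBE line 2 and CBE line 1, which share the genotype label, differed in 7 members, 4 higher and 3 lower in CBE line 2. This is 10.1%, against 10.2% of all genes (5.17% higher and 5.03% lower). Libraries did not overlap in 38 members (55.1%, against 53.1%). The split of calls with quantile scaling was 2 higher and 7 lower. Pld4 and Adssl1 had the greatest differences among the 7. Ccdc85c passed the filter through the CBE line 2 libraries alone, so its difference between the CBE lines was built into its selection. Adssl1 differed by 1.32 (SE 0.29, adjusted p = 0.0341), lost without CBE line 1 replicate 1 (0.108) or 2 (0.124), or CBE line 2 replicate 1 (0.214) or 2 (0.0863). Leaving out libraries gave counts between 0 and 9: 4 without either WT library or CBE line 1 replicate 1, 3 without CBE line 1 replicate 2, and 1 and 0 without CBE line 2 replicate 1 or 2 (2.79 and 2.5% of all genes). No member held this call in all 8 leave-outs (0, against 1.96% of all genes), and Ccdc85c held it in the 6 in which it was tested.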

How the data were processed

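Total RNA of 8 libraries was measured by stranded mRNA sequencing (75 bp single reads, per the labels' protocols). TopHat, Cufflinks and mm9 appear in the submitters' processing notes; settings and strand counting are not stated there. The deposited values are FPKM with an interval and a status per gene, per the file headers. FPKM of 277 symbols listed at several loci were added up. A status that was not OK removed 21 symbols, none in the interval. Implied reads treat each interval as 2 SD either way of counting error alone, so they are not read counts. Floors are 3 reads under the same assumption.

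Genes at 1 FPKM or more in at least 2 of 8 libraries were fitted by limma 3.58.1 (R 4.3.3) as log2(FPKM + 1) over all 4 lines with a trended prior (degrees of freedom: 4 residual, 2.65 prior), with Benjamini-Hochberg adjustment over 10479 genes. Differences on this scale understate the change of low genes. Members and role lists were chosen with earlier results of these data known. A further gene of the interval is not reported here. Named genes were the 8 largest rises and 8 largest falls among called members without overlap, every member within 1 Mb, up to 4 called members of each role list, and a fixed list of well-known genes. Jag2, Tdrd9, Vipr2, Dnah11, 2010107E04Rik and Begain were named after their values were seen.

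Deviations of same-numbered libraries from their line means correlated at 0.279 to 0.502 in all 6 pairs of lines, so the replicate number was treated as a pairing in an alternative fit. These values met the condition set beforehand for accepting a pairing, yet the main fit has no replicate term. Calls given without mention of the block come from the main fit or its other alternatives. The labels do not say what the number shares. Of 69 members, 61 matched a RefSeq promoter by symbol. Other pseudocounts, filters, scalings and subsets of libraries were tried as alternatives. The fit was tested on simulated data with known changes.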

Additional observations from a re-analysis of the deposited data

Results flagged for a closer look

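The CBE lines share a genotype label, and 7 members differed between them by a test of the difference itself (limma, all 8 libraries, 2 for each line). This was 10.1% of members, against 10.2% of all genes tested, so the count was near the share over the genome. On the log2(FPKM + 1) scale, CBE line 2 minus CBE line 1, the differences were 0.627 for Ccdc85c, -0.806 for Evl, 0.497 for Xrcc3, -0.886 for Ppp1r13b, 1.319 for Adssl1, -2.355 for Pld4 and 0.58 for Gpr132. Their adjusted p-values were 0.00664, 0.0278, 0.0346, 0.0204, 0.0341, 0.00497 and 0.0132. Libraries of the CBE lines did not overlap for any of them, but the same was true of 53.1% of all genes. All but Ccdc85c lost the call when some single library was left out, and Ccdc85c could be tested in 6 of 8 such fits. It was not tested without either CBE line 2 library, and it passed the filter through these libraries alone. For Evl this was either WT library (0.0519 and 0.0520), CBE line 1 replicate 1 (0.119) or either CBE line 2 library (0.135 and 0.201). The Ppp1r13b call was lost without either WT library (0.0510 and 0.0513), either CBE line 1 library (0.0837 and 0.0815) or either CBE line 2 library (0.160 and 0.108), and that of Gpr132 without either CBE line 1 library (0.0608 and 0.0535) or either CBE line 2 library (0.131 and 0.134).

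Below the filter, 3 genes had a line whose deposited intervals lay wholly above those of both WT libraries. Cdc42bpb reached 0.0807 FPKM, in CBE line 1. Tdrd9 reached 0.0691 FPKM and Vipr2 0.902 FPKM, both in the Eµ-deleted line. Tdrd9 had 13 and 18 implied reads in that line and overlaps Rd3l on the other strand, so its level is uncertain too. Jag2 and Dnah11 lay below both WT intervals in each mutant line, and Adam6b in the Eµ-deleted line. Dnah11, an axonemal dynein gene that overlaps Cdca7l, was at 0.000988 and 0.00561 FPKM in CBE line 1, 0.00265 and 0.00612 FPKM in CBE line 2, 0.0790 and 0.0924 FPKM in the Eµ-deleted line, and 0.140 and 0.184 FPKM in WT. None of these was tested.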

How the results depend on the processing

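Alternatives were pseudocounts of 0.1 and 5, 3 filters, 3 scalings, no trend, only the libraries compared, the replicate block and each library left out. The filter on a mean of 1 FPKM was chosen after values were seen. No call of a named gene reversed in any of them. With a mean of at least 5 FPKM, the members called numbered 5, 4 and 5 in CBE line 1, CBE line 2 and Eµ-deleted cells, 4 for the CBE mean, 1 for the Eµ-deleted line against the CBE mean and 2 between the CBE lines, with 3, 2 and 4 near and 2, 2 and 1 far members. With no filter on low values, the medians in CBE line 1, CBE line 2, the Eµ-deleted line and the CBE mean against WT were 0.005, 0.012, 0.015 and 0.011, and 8, 9 and 8 far members were called. TPM scaling gave medians of 0.178, 0.153, 0.212 and 0.179, and quantile scaling 0.067 for the CBE mean. With only the libraries compared, 8 members were called in the Eµ-deleted line (6 near and 2 far) and 8 far ones in CBE line 2. With the replicate block, 22 and 23 members were called in CBE line 1 and the Eµ-deleted line, and 9 far members in each of the 3 lines. The block ended no named call and added 20. Over all genes the share called also moved, as given above for the block and the mean of 5 FPKM. Shares over all genes under the remaining settings are not given, so these counts are not read as a trait of the region. The cause of these shifts was not tested.

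Leaving out 1 library at a time gave 6 to 17, 4 to 18 and 4 to 24 called members in CBE line 1, CBE line 2 and Eµ-deleted cells, 8 to 20 for the CBE mean, 4 to 14 for the Eµ-deleted line against it and 0 to 9 between the CBE lines. Near members called were 6 to 12, 4 to 13 and 4 to 12, and far members 0 to 5, 0 to 6 and 0 to 12. The medians were 0.099 to 0.125, 0.073 to 0.114, 0.08 to 0.187, 0.082 to 0.15, 0.004 to 0.104 and -0.01 to 0.07 in this order. Calls over all genes moved the same way in the leave-outs given above, so these ranges are not read as a trait of the region. Where a line kept 1 library, its spread was taken from the others. With 2 libraries a line and levels near 1 FPKM, differences smaller than the spread between libraries were not detectable.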
